A study of Mus musculus with 12 samples.

Results

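The 36 genes described here are known or proposed targets of the hypoxia-inducible factors (HIF) together with the genes that make and degrade HIF. They were taken by gene symbol, glycolytic enzymes being left out, and all 36 were found among the 53465 genes of the deposited files. The genes were measured by bulk RNA sequencing of mouse forelimb buds (Swiss albino strain) in 12 libraries, 3 for each of 4 groups. Each library came from the single pair of forelimb buds of 1 embryo. The series asked which genes depend on the transcription factors TBX3 and HAND2 in the early limb bud.

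Tbx3-deficient buds carried, on both copies of Tbx3, a Venus reporter with a transcriptional stop inserted at the start codon. They were collected at stage E9.75 to E10.0 (embryonic days; 28 to 31 somites) and compared with wild-type buds of that stage. Hand2-deficient buds were collected at E10.0 to E10.25 (31 to 33 somites). They carried 1 null and 1 conditional Hand2 allele. The conditional allele was removed by a Cre recombinase driven by Prrx1, which is active in the limb mesenchyme, so other cell types of the bud keep that allele. Their controls carried Prrx1-Cre with both Hand2 copies wild type, so Cre is present in both of these groups. Nothing in the sources used here says which embryos were littermates or processed together, so p-values measure the spread between single embryos, which may be partly technical.

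HIF is a pair of proteins, an alpha subunit (from Hif1a or Epas1) and a beta subunit (from Arnt). When oxygen is present, prolyl hydroxylases of the EGLN family mark the alpha subunit for recognition by VHL and destruction, and the asparaginyl hydroxylase HIF1AN blocks its activity. When oxygen is low the alpha subunit stays, pairs with ARNT and binds a short core motif near its targets, so HIF activity is set mainly at the protein level rather than by Hif1a RNA. Known targets move metabolism from mitochondria to glycolysis, recruit vessels and modify collagen. Egln1 and Egln3 are themselves targets. Early mouse embryos and their limb buds develop at low oxygen tension, and loss of HIF components is known to impair vessels and limb growth.

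The libraries held 23.3 to 31.8 M (1e6) counts in the Tbx3 series and 60.2 to 68.6 M in the Hand2 series. One Hand2-deficient library, replicate 1, had 5.37% of its counts on a single gene (CT010467.1). Xist and Y-linked counts read 2 Tbx3-deficient embryos (replicates 1 and 2) as male and replicate 3 as female, whereas all 3 Tbx3 wild-type embryos read as female. In the Hand2 series, replicates 1 and 3 of the deficient group and replicate 3 of the wild-type group read as male. Hand2 stood at 0.186, 2.22 and 0.378 CPM (counts per 1e6 counts) in Hand2-deficient buds, against 120, 120 and 126 CPM in their controls. Tbx3 stood at 80.6, 79.3 and 73.3 CPM in buds labelled Tbx3-deficient, against 78.0, 77.3 and 79.3 CPM in wild-type buds. The count of that gene therefore did not separate both groups, although a transcriptional stop was inserted at its start codon. Counts were given per gene, so reads before and after the stop could not be told apart. Whether the protein was lost does not show in these counts, and why they did not fall was not tested. The Tbx3 count thus gave no support to these labels. The sum of 10 forelimb mesenchyme markers was 1980 to 2180 CPM in Tbx3-deficient and 2210 to 2330 CPM in Tbx3 wild-type buds, and 2360 to 2770 CPM in Hand2-deficient buds and 2050 to 2290 CPM in their controls. The groups did not overlap in either series, the deficient sums being lower in the Tbx3 series and higher in the Hand2 series, and the part of this in the member values was not tested. In the Tbx3 series 4 of the 10 markers were lower without overlap, against 9.95% of all 15130 genes tested, and none higher, against 10.7%. The forelimb gene Tbx5 stood at 62.4 ± 7.48 CPM in Tbx3-deficient and 90.2 ± 3.30 CPM in Tbx3 wild-type buds (SD, n = 3 each).

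On a length-scaled measure (TPM, transcripts per 1e6 transcripts), which allows genes to be set against each other, the members spanned a wide range in Tbx3 wild-type buds. Fam162a was the highest at 275 ± 12.2 TPM, followed by Egln1 (115 ± 7.5 TPM), Bnip3l (114 ± 0.487 TPM) and Egln2 (107 ± 5.67 TPM), the last 3 within their spread of each other (SD, n = 3). Hif1a stood at 91.7 ± 7.17 TPM, Arnt at 22.1 ± 0.119 TPM and Epas1 at 7.05 ± 0.497 TPM. At the low end, Adm had 2.02 ± 0.258 TPM, Car9 0.585 ± 0.0586 TPM and Rora 0.479 ± 0.0940 TPM, the last 2 close to within their spread. In the Hand2 controls Fam162a was again highest at 250 ± 7.12 TPM and Rora lowest at 0.570 ± 0.106 TPM.

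In buds labelled Tbx3-deficient, 16 members rose and none fell. Of the 35 members with enough counts to be tested, 45.7% were called higher, against 0.727% of all 15130 genes tested, and 0 were called lower, against 0.284%. The members were chosen with earlier results of these data known, so these shares describe the list and do not test it. A member was called when its adjusted p was under 0.05 in edgeR's quasi-likelihood test with Benjamini-Hochberg adjustment over all genes. In 29 of the 35 (82.9%) every Tbx3-deficient library lay above every wild-type library, which held for 10.7% of all genes. The opposite order held for 3 (8.57%), Hif1a, Hif1an and Pfkfb4, against 9.95% of all genes. The median log2 fold change of the 35 tested members was 0.66, against -0.00299 over all genes. At an unadjusted p under 0.05 in the same test, 28 were higher and 2 (Hif1a and Pfkfb4) lower, against 2159 of all 15130 genes in either direction. DESeq2 and limma-voom also called none lower, and called 27 and 15 higher. Beyond the 16, DESeq2 called Bnip3l, Higd1a, Pdk3, Ppp1r3c, Plod1, Plod2, Kdm3a, Jmjd6, Rora, Ankrd37 and Car12, as did edgeR with no filter on low counts. The edgeR fit of all 12 libraries in 4 groups called the same ones except Jmjd6 and Car12. The gene bodies of 14 members overlap a gene on the other strand, whose level reached 31.2 CPM for Ufsp2 at Ankrd37, 11.4 for Mettl23 at Jmjd6 and 6.11 for Wdr5b at Fam162a and no more than 2.78 CPM elsewhere. Car9, a carbonic anhydrase known as a strong HIF target in human tumour cells, was at or below 0.773 CPM in each of the 6 libraries and was not tested in this series.

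**Figure D1:**
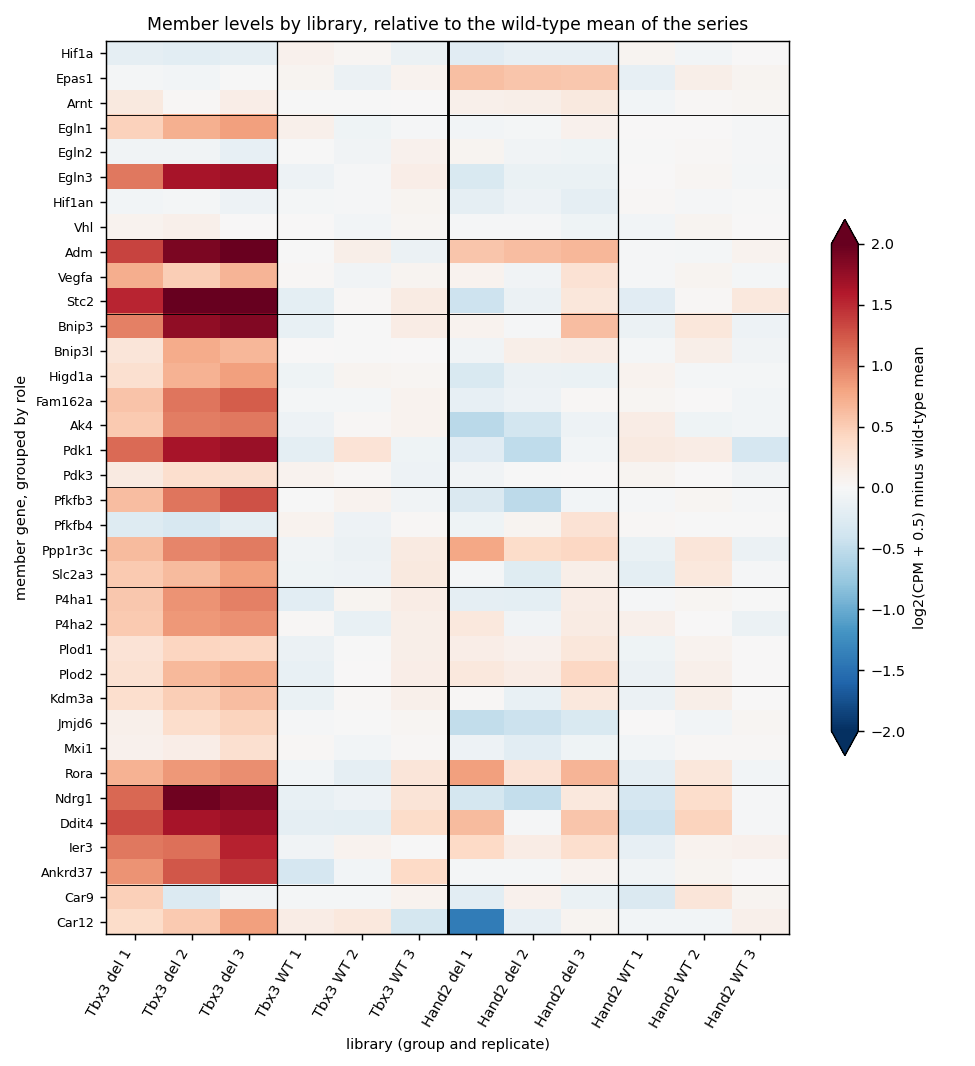
Level of each of the 36 members (down the page, grouped by role) in each of the 12 libraries (across), as log2(CPM + 0.5) minus the mean of the wild-type libraries of the same series; colours are capped at -2 and 2. The 3 Tbx3-deficient columns are warm over most roles except the HIF subunits and some sensors, and the Hand2-deficient columns show no such block.

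The 3 Tbx3-deficient libraries differed in how far the members moved. The median member deviated from the wild-type mean by 0.52 (replicate 1), 0.71 (replicate 2) and 0.83 (replicate 3) on the log2(CPM + 0.5) scale. In the 3 wild-type libraries the same median was between -0.05 and 0.06. Among the 16 called members, replicate 1 was the lowest of the 3 deficient libraries in 15 and replicate 3 the highest in 14. Each deficient library on its own placed 30 (replicates 1 and 2) or 29 (replicate 3) of the 35 tested members above every wild-type library. Replicate 3 is the only female among the deficient embryos, so these 29 members were above 3 wild-type embryos of the same sex.

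The number of calls moved more than the fold changes when a library was left out. The count of members called higher was 22 without Tbx3-deficient replicate 1, 4 without replicate 2 and 6 without replicate 3. It was 4, 1 and 3 without wild-type replicate 1, 2 and 3 in turn, while the median fold change of the members stayed between 0.58 and 0.77 on the log2 scale throughout. With embryo sex as a covariate, which leaves a single deficient library to separate sex from genotype, 3 members (Stc2, Pfkfb3 and Ier3) were called among 22 genes in all, with a median log2 fold change of 0.83. A fit of the female libraries only, added after the data had been seen, called 13 members higher among 57 genes. That fit has 1 deficient library, which was assumed to vary like the wild-type ones.

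The HIF subunits themselves were not called in this series. Hif1a, the oxygen-regulated subunit, had 146, 142 and 146 CPM in Tbx3-deficient buds, against 175, 169 and 151 CPM in wild-type buds. Its deficient libraries all lay below the wild-type ones, at -0.19 ± 0.06 on the log2 scale (SE, adjusted p 0.216) in the quasi-likelihood test. Epas1, which encodes the alpha subunit best known in vessels, had 11.6, 11.6 and 12 CPM in deficient buds, against 12.5, 11.0 and 12.6 CPM. Those ranges overlapped. Arnt, the shared partner, had 61.7, 54.7 and 59.5 CPM in deficient buds, against 53.9, 53.6 and 54.6 CPM, a change of 0.12 ± 0.06 on the log2 scale (SE, adjusted p 0.403). The deficient libraries were the higher ones for Arnt, 1 of them by a small margin.

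Of the 5 oxygen sensors and degradation factors, the prolyl hydroxylases Egln1 and Egln3 rose. Egln3 had 13.9, 21.3 and 22.0 CPM in Tbx3-deficient buds, against 6.02, 6.33 and 7.11 CPM in wild-type buds, and was 2.95-fold higher. Its log2 fold change was 1.56 ± 0.18 (SE) with an adjusted p of 0.0153 in the edgeR test. Egln1 had 175, 208 and 223 CPM in deficient buds, against 136, 119 and 125 CPM, a 1.59-fold difference (log2 0.67 ± 0.09 SE, adjusted p 0.0290). For both genes the lowest deficient library was above the highest wild-type one.

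The other 3 in this role did not pass. Egln2, the prolyl hydroxylase not known as a HIF target, had 87.0, 86.7 and 81.1 CPM in deficient buds, against 90.9, 86.6 and 97.1 CPM, and its ranges overlapped. Hif1an had 141, 143 and 136 CPM in deficient buds, against 144, 145 and 153 CPM, slightly lower in each deficient library (log2 -0.07 ± 0.05 SE, adjusted p 0.548). Vhl, the recognition subunit for destruction of the alpha subunit, had 48.9, 50 and 46.8 CPM in deficient buds, against 46.9, 44.7 and 48.0 CPM, again with overlap.

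**Figure D2:**
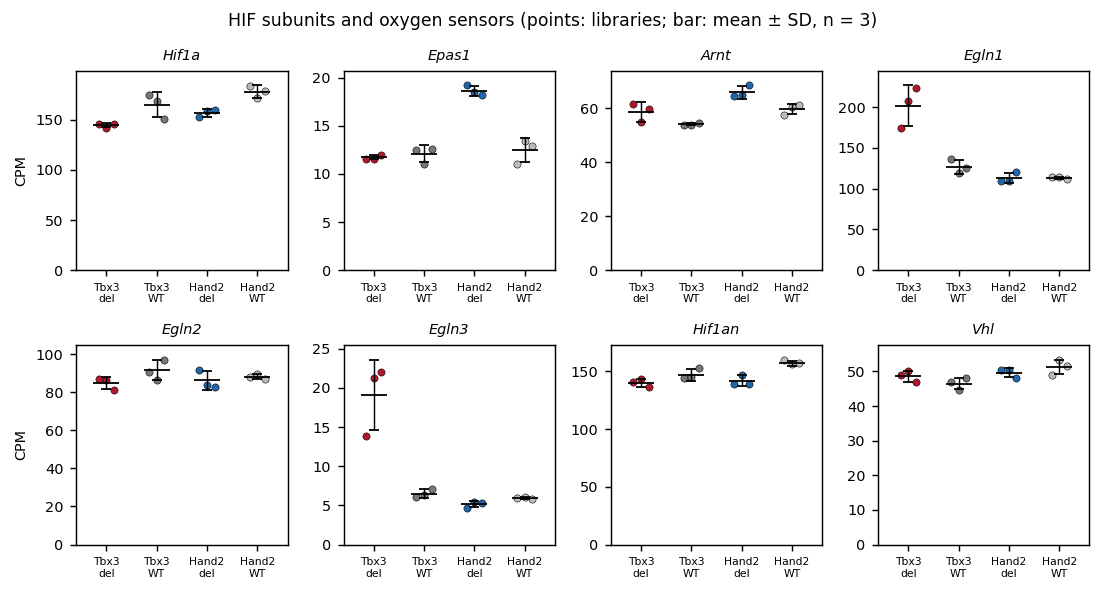
CPM of the 3 HIF subunits and 5 oxygen sensors in each library (points) with the mean ± SD of 3 libraries per group, on axes from 0. Egln1 and Egln3 stand above the other groups in Tbx3-deficient buds, and Epas1 in Hand2-deficient buds.

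All 3 members that encode secreted proteins rose. Adm, the vessel-dilating peptide adrenomedullin, had 3.30, 5.02 and 5.37 CPM in Tbx3-deficient buds, against 0.982, 1.13 and 0.883 CPM in wild-type buds. That is 4.57-fold higher (log2 2.19 ± 0.25 SE, adjusted p 0.0125, edgeR quasi-likelihood test). Every deficient library was well above every wild-type library, although the gene was among the least abundant of the members. Stc2, stanniocalcin 2, had 14, 22.0 and 27.2 CPM in deficient buds, against 3.93, 4.68 and 5.19 CPM (4.58-fold, log2 2.20 ± 0.24 SE, adjusted p 0.0125). Its deficient libraries were the most spread of the called members on the log2 scale. Vegfa, the main growth factor for vessels, had 75.7, 64.4 and 73.2 CPM in deficient buds, against 46.3, 43.5 and 47.5 CPM (1.55-fold, log2 0.64 ± 0.07 SE, adjusted p 0.0125). Here replicate 1 was the highest of the deficient libraries, unlike in the other 15 called members. The 11 endothelial markers, by contrast, summed to 342 to 389 CPM in Tbx3-deficient buds and 344 to 385 CPM in wild-type buds, and edgeR called none of them (2 had an unadjusted p under 0.05, 1 in each direction, and DESeq2 called 1 lower). In bulk samples, a change in the number of cells of a type and a change in RNA per cell cannot be told apart.

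Of the 7 members that act in or on mitochondria, 4 passed, and in all 7 the deficient libraries lay above the wild-type ones. Bnip3, which targets mitochondria for removal by autophagy, had 123, 211 and 221 CPM in Tbx3-deficient buds, against 55.2, 60.7 and 68.1 CPM in wild-type buds (3.02-fold, log2 1.59 ± 0.21 SE, adjusted p 0.0220). Pdk1, a kinase that keeps pyruvate out of the citric acid cycle, had 154, 221 and 232 CPM in deficient buds, against 61.1, 85.0 and 65.8 CPM (2.87-fold, log2 1.52 ± 0.18 SE, adjusted p 0.0149). In both genes replicate 1 was the lowest deficient library, and even it lay further above the highest wild-type library than the wild-type libraries lay apart. Fam162a, a mitochondrial HIF target linked to cell death in low oxygen, had 106, 151 and 165 CPM in deficient buds, against 69.1, 69.7 and 75.2 CPM (1.97-fold, log2 0.98 ± 0.15 SE, adjusted p 0.0352). Ak4, a mitochondrial adenylate kinase, had 107, 150 and 155 CPM in deficient buds, against 68.9, 75.6 and 77.9 CPM (1.85-fold, log2 0.89 ± 0.13 SE, adjusted p 0.0352). The groups were apart in both genes. The 3 that did not pass were Bnip3l, the paralog of Bnip3 (log2 0.57 ± 0.12 SE, adjusted p 0.0816), Higd1a, which aids respiratory complexes in low oxygen (0.64 ± 0.12, 0.0650), and Pdk3 (0.28 ± 0.07, 0.115). The share of counts on mitochondrially encoded genes was 0.78 to 0.94% in Tbx3-deficient and 1.01 to 1.35% in wild-type libraries, with no overlap. Its part in the result was not tested.

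Of the 4 members in sugar and glycogen regulation, 2 rose. Pfkfb3 makes the small sugar phosphate that speeds up glycolysis. It had 66.4, 90.6 and 104 CPM in Tbx3-deficient buds, against 42.6, 45.4 and 41.0 CPM in wild-type buds (2.03-fold, log2 1.02 ± 0.15 SE, adjusted p 0.0310). Slc2a3, a glucose transporter, had 160, 174 and 198 CPM in deficient buds, against 105, 104 and 128 CPM (1.58-fold, log2 0.66 ± 0.11 SE, adjusted p 0.0397). Deficient libraries were above wild-type libraries throughout for both. Ppp1r3c, a glycogen-targeting phosphatase subunit, was also apart (3.17, 4.13 and 4.37 CPM in deficient buds, against 1.75, 1.69 and 2.19 CPM) but missed the threshold at an adjusted p of 0.0684. Pfkfb4, a paralog of Pfkfb3, was lower in every deficient library (8.95, 8.49 and 9.33 CPM, against 11.3, 10.1 and 11.0 CPM in wild-type buds), at -0.28 ± 0.11 on the log2 scale (SE, adjusted p 0.290).

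Of the 4 collagen-modifying members, 2 rose. P4ha1 encodes a catalytic subunit of collagen prolyl 4-hydroxylase, and had 137, 175 and 188 CPM in Tbx3-deficient buds, against 80.6, 97.7 and 104 CPM in wild-type buds (1.77-fold, log2 0.82 ± 0.13 SE, adjusted p 0.0402). P4ha2, the related catalytic subunit, had 21.2, 27.1 and 28.0 CPM in deficient buds, against 15, 13.2 and 15.9 CPM (1.73-fold, log2 0.79 ± 0.12 SE, adjusted p 0.0365). Each deficient library exceeded each wild-type library for both genes. The lysyl hydroxylases Plod1 (log2 0.38 ± 0.07 SE, adjusted p 0.0734) and Plod2 (0.58 ± 0.12, 0.0807) were apart between groups without passing the threshold.

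None of the 4 chromatin and transcription members was called in the main edgeR fit, although in each of them the deficient libraries lay above the wild-type ones. DESeq2, and edgeR with no filter on low counts, called Kdm3a, Jmjd6 and Rora, and the 4-group edgeR fit called Kdm3a and Rora. Without Tbx3-deficient replicate 1 edgeR called Kdm3a and Jmjd6, and with a replicate block Kdm3a. Kdm3a, a histone demethylase that HIF is known to induce, came nearest at an adjusted p of 0.0511, with 108, 120 and 131 CPM in Tbx3-deficient buds against 77.8, 86.8 and 91.9 CPM. Rora, a nuclear receptor, was apart between groups by 0.98 ± 0.20 on the log2 scale (SE, adjusted p 0.0785). Jmjd6, a hydroxylase of the Jumonji family, and Mxi1, which antagonises MYC, had log2 fold changes of 0.32 ± 0.09 and 0.18 ± 0.07 (SE).

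Of the 4 stress and growth control genes 3 rose, with a median log2 fold change over the 4 of 1.5. Ddit4, an inhibitor of the growth kinase mTORC1, had 111, 141 and 147 CPM in Tbx3-deficient buds, against 39.4, 38.7 and 57.6 CPM in wild-type buds (2.93-fold, log2 1.55 ± 0.17 SE, adjusted p 0.0125). Ndrg1, a stress-responsive gene, had 18.5, 32.5 and 30.3 CPM in deficient buds, against 7.21, 7.45 and 9.68 CPM (3.34-fold, log2 1.74 ± 0.22 SE, adjusted p 0.0210). Ier3, an early response gene, had 4.68, 4.83 and 6.74 CPM in deficient buds, against 1.88, 2.12 and 1.96 CPM (2.72-fold, log2 1.45 ± 0.20 SE, adjusted p 0.0250). All 3 had clear gaps between groups. Ankrd37, an ankyrin-repeat gene, was 2.43-fold higher at 6.91, 8.87 and 10.1 CPM, against 2.65, 3.29 and 4.69 CPM in wild-type buds, and missed the threshold at an adjusted p of 0.0602. Its gene body overlaps Ufsp2 on the opposite strand, which stood at 25 to 31.2 CPM in deficient and 22.4 to 25.8 CPM in wild-type buds, and the counting strand is not given in the sources used here. Car12, a membrane carbonic anhydrase, differed by 0.58 ± 0.18 on the log2 scale (SE, adjusted p 0.193).

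**Figure D3:**
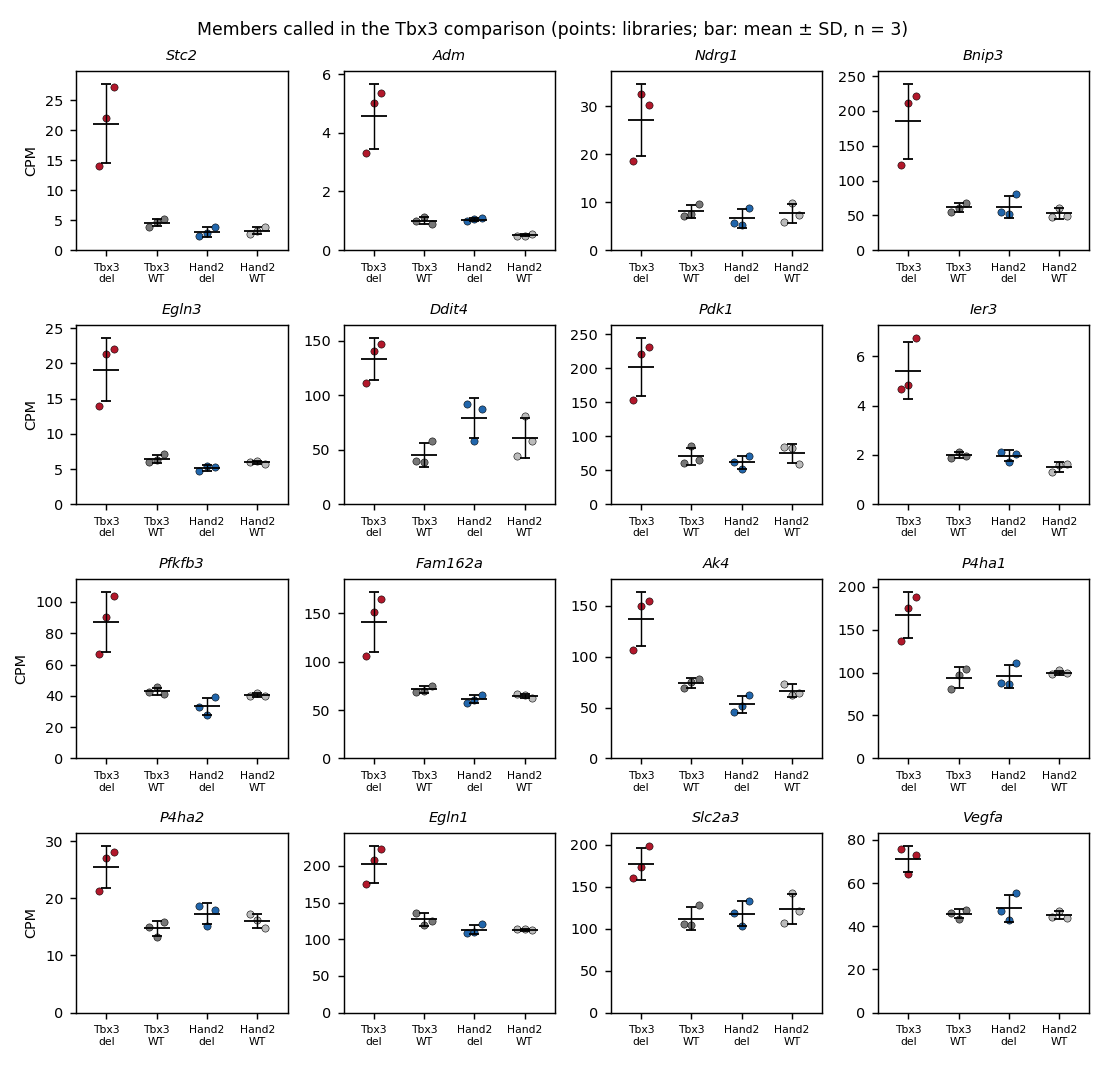
CPM of the 16 members called in the Tbx3 comparison in each library (points) of the 4 groups, ordered by fold change, with the mean ± SD of 3 libraries, on axes from 0. In each panel the 3 Tbx3-deficient libraries lie above the 3 Tbx3 wild-type libraries; among the same genes in the Hand2 series, Adm, at 0.985 to 1.09 CPM against 0.480 to 0.559 CPM, and Ier3 are the ones whose groups do not overlap upward.

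Because HIF binds a core of ACGTG or GCGTG, the promoters of the 5 called members with the smallest p and a RefSeq entry are shown. Each is the 300-base window from 250 bases before to 50 bases after the gene start, in GRCm38.p6 coordinates, read 5′ to 3′ on the gene's strand. Capitals mark ACGTG or GCGTG on either strand (CACGT or CACGC on the strand shown). The Ddit4 window is chr10:59951721-59952020 (minus strand), that of Stc2 chr11:31370012-31370311 (minus), of Adm chr7:110627407-110627706 (plus), of Vegfa chr17:46032328-46032627 (minus) and of Pdk1 chr2:71872974-71873273 (plus). Vegfa and Pdk1 each have 2 entries, of which the nearest to the annotated gene start is printed.
Ddit4: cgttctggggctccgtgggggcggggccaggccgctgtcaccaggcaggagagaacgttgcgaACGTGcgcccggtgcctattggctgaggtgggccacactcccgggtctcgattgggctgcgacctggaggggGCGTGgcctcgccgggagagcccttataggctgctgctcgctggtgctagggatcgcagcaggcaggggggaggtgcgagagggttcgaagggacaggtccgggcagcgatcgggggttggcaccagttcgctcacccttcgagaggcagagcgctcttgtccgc
Stc2: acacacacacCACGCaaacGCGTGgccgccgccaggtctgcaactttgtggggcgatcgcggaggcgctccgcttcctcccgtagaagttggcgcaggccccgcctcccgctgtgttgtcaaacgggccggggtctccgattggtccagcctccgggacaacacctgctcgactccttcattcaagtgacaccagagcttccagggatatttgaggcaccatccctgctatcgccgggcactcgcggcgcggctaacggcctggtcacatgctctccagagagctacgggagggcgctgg
Adm: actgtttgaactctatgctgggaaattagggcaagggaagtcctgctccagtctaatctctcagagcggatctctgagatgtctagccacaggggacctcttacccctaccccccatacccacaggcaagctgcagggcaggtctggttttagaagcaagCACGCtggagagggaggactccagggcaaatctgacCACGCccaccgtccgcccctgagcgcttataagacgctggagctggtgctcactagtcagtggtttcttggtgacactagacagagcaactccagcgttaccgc
Vegfa: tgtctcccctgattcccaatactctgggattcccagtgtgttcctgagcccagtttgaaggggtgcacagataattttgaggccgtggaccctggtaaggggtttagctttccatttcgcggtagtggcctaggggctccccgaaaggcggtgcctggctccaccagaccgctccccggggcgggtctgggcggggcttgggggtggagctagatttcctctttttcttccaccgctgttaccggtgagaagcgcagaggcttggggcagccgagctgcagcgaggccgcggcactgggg
Pdk1: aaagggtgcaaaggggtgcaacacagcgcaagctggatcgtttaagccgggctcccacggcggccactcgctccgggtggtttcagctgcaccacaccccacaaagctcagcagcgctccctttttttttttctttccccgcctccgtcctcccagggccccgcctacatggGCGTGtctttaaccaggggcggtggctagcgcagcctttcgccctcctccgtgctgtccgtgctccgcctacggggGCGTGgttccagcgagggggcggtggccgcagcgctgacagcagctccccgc

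Counted from 1 at the 5′ end of the window, matches start at positions 64 and 136 in Ddit4, 11 and 20 in Stc2, 161 and 197 in Adm, and 173 and 249 in Pdk1, while the printed Vegfa window has 0. Of the 16 called members, 14 have a promoter entry (Ndrg1 and Slc2a3 do not) and all 14 hold a match in at least 1 entry. For Vegfa the matches are only in its other entry, chr17:46025114-46025413, which lies inside the gene body. Of the other 20 members, 17 have an entry (not Bnip3l, Epas1 or Plod2), and 14 of these hold a match, the exceptions being Car12, Hif1an and Vhl. By promoter, 81.0% of the 42 entries of members hold ACGTG or GCGTG, against 43.8% of all 32851 entries. ACGTG alone was in 54.8% of member entries and 19.6% of all entries, and GCGTG alone in 64.3% and 32.4%. Both motifs contain a CpG, and the median number of CpG dinucleotides per window was 25 for members and 7 for all promoters. The part of CpG content in the excess was not tested, and a match is not evidence of binding.

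In Hand2-deficient buds the members did not move as a block. All 36 were tested, 2 rose (5.56%, against 4.68% of all 17488 genes tested) and 2 fell (5.56%, against 5.82%), shares near those of all genes. Groups did not overlap for 8 members in each direction (22.2%), against 18.6% of all genes higher and 19.6% lower. The median log2 fold change of the members was -0.03, against 0.01 over all genes. Members with a positive fold change numbered 16 of 36. At an unadjusted p under 0.05, 14 members (38.9%) passed, 7 in each direction, against 5663 of all 17488 genes.

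Epas1 and Adm were the members that rose. Epas1 had 19.2, 18.5 and 18.2 CPM in Hand2-deficient buds, against 11.0, 13.4 and 12.9 CPM in Hand2 controls (1.49-fold, log2 0.58 ± 0.09 SE, adjusted p 0.0167, edgeR quasi-likelihood test). The deficient libraries lay close together and above all controls. Adm had 0.985, 1.05 and 1.09 CPM in deficient buds, against 0.492, 0.480 and 0.559 CPM (2.04-fold, log2 1.03 ± 0.18 SE, adjusted p 0.0221). Adm was the only member called higher in both comparisons. The 11 endothelial markers summed to 360 to 392 CPM in Hand2-deficient buds and 342 to 348 CPM in controls. Of these, 1 was called higher (Cdh5, at 86.4 ± 3.27 CPM against 77.1 ± 2.07 CPM, SD, n = 3 each), against 4.68% of all genes. At an unadjusted p under 0.05, 5 of the 11 were higher and 0 lower, against 5663 of all 17488 genes in either direction. The groups did not overlap upward for 5 of the 11, against 18.6% of all genes. DESeq2 called 3 higher, and limma-voom and an edgeR fit of all 12 libraries in 4 groups called 0. Cdh5 was called with all libraries and without control replicate 2, but not when any other library was left out. The part of these markers in the Epas1 and Adm values was not tested.

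Hif1a and Jmjd6 were the members that fell. Jmjd6 had 60.5, 63.4 and 68.6 CPM in Hand2-deficient buds, against 85.7, 81.9 and 87.8 CPM in controls (log2 -0.41 ± 0.05 SE, adjusted p 0.01). Hif1a had 153, 159 and 160 CPM in deficient buds, against 184, 172 and 179 CPM (log2 -0.18 ± 0.04 SE, adjusted p 0.0453). All deficient libraries were below all controls in both genes. The gene body of Jmjd6 overlaps Mettl23 on the other strand, which stood at 7.75 to 11.4 CPM in deficient buds and 6.73 to 7.78 CPM in controls.

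Calls in this series were also sensitive to single libraries. None of the 4 was called without control replicate 3. Jmjd6 alone was called without deficient replicate 1 or 3. Epas1 and Jmjd6 were called without control replicate 1, and, together with Rora, without deficient replicate 2. With embryo sex as a covariate, Epas1 and Jmjd6 remained called.

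The remaining HIF and sensor genes did not pass in the Hand2 series. Arnt had 64.4, 64.7 and 68.4 CPM in Hand2-deficient buds, against 57.6, 60.4 and 61.2 CPM (adjusted p 0.0624), higher in each deficient library. Hif1an had 139, 147 and 139 CPM in deficient buds, against 160, 156 and 157 CPM (adjusted p 0.0510), lower in each. Egln3 was slightly lower at 4.69, 5.39 and 5.36 CPM, against 5.95, 6.10 and 5.76 CPM (adjusted p 0.181). Egln1 had 109, 110 and 121 CPM in deficient buds, against 114, 114 and 112 CPM, and a fitted change of 0.00 ± 0.05 (log2, SE). Egln2 had 91.9, 83.8 and 82.7 CPM in deficient buds, against 88.1, 89.8 and 86.8 CPM, and Vhl had 50.3, 50.4 and 48.1 CPM, against 49.1, 53.2 and 51.7 CPM. For Egln1, Egln2 and Vhl both groups overlapped.

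**Figure D4:**
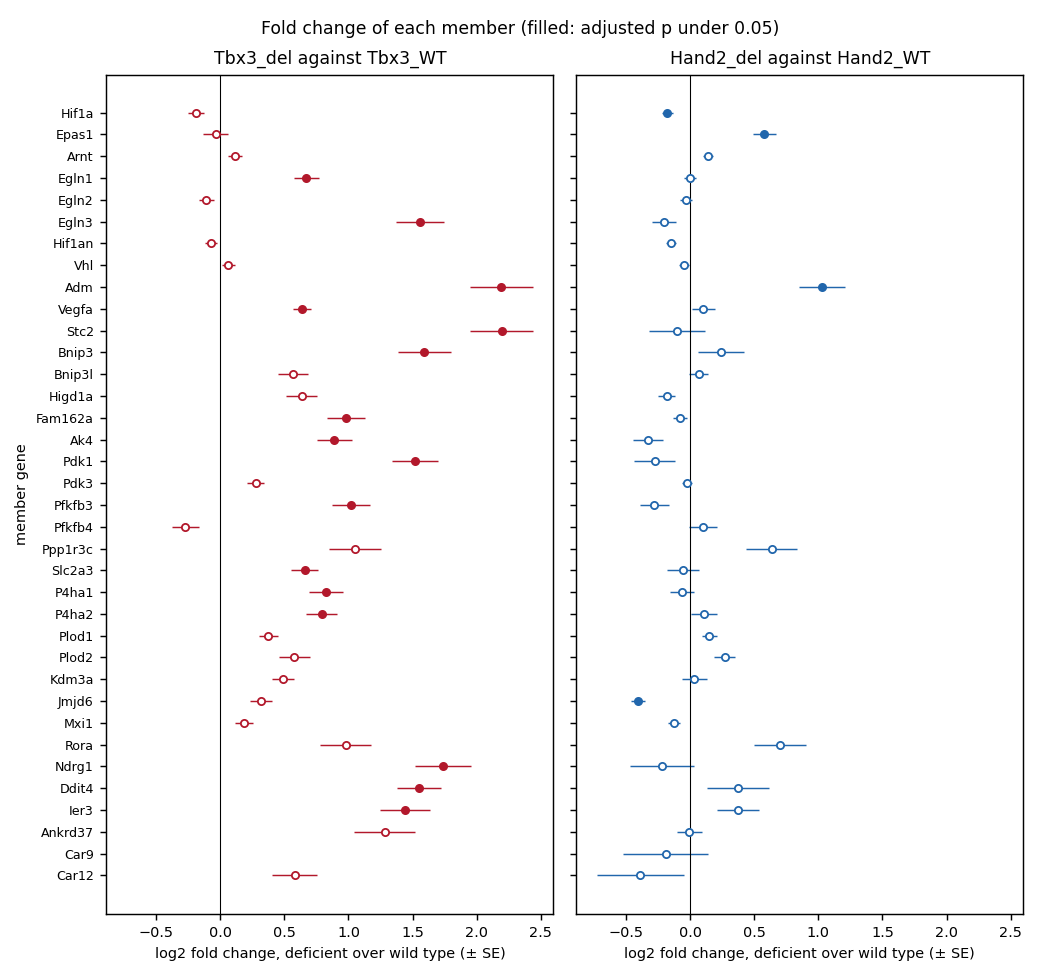
Log2 fold change of each member (deficient over wild type, ± SE) in the Tbx3 comparison (left) and the Hand2 comparison (right), filled where the adjusted p was under 0.05. Most points lie right of 0 on the left side, up to 2.20 for Stc2, while those on the right lie on both sides of 0 and within -0.41 to 1.03; Car9 has no point in the Tbx3 comparison.

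Most members that rose in Tbx3-deficient buds did not in Hand2-deficient buds. Bnip3 had 54.8, 51.6 and 80.5 CPM in Hand2-deficient buds, against 48.1, 61.2 and 48.8 CPM in controls. Ndrg1 had 5.75, 5.25 and 8.75 CPM, against 5.89, 9.77 and 7.38 CPM, and Stc2 2.27, 2.91 and 3.82 CPM, against 2.65, 3.26 and 3.78 CPM. In each of these 3 genes the groups overlapped, and the Hand2 fold changes had SEs of 0.18 to 0.25 on the log2 scale.

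Whether both effects differ was tested directly, as the Hand2 effect minus the Tbx3 effect in a fit of all 12 libraries, which asks whether a member responds unequally to loss of either factor. Of the 36 members 13 (36.1%) were called, against 1.68% of all 17360 genes tested, and 9 of the 13 had been called higher in Tbx3-deficient buds. The difference was negative in 31 of 36 members and in 12 of those called. It was largest among the called members for Stc2 (log2 -2.30 ± 0.36 SE, adjusted p 0.0108), Ndrg1 (-1.96 ± 0.37, 0.0260), Pdk1 (-1.79 ± 0.27, 0.00994) and Egln3 (-1.76 ± 0.22, 0.00505). It was positive for Epas1 alone among them (0.62 ± 0.12, adjusted p 0.0331), a call lost in 10 of the 12 fits that left out 1 library. Among members called in Tbx3-deficient buds, Bnip3 (-1.35 ± 0.31, 0.0547), Vegfa (-0.53 ± 0.12, 0.0544), Ier3 (-1.07 ± 0.25, 0.0572) and P4ha2 (-0.68 ± 0.17, 0.0736) missed the threshold. So did Adm (-1.17 ± 0.29, 0.0748), Slc2a3 (-0.72 ± 0.18, 0.0752) and Ddit4 (-1.18 ± 0.33, 0.112). With 1 library left out the count of 13 became 7 (without Tbx3-deficient replicate 2) to 18 (without Tbx3-deficient replicate 1). Stage, the Prrx1-Cre carried by both Hand2 groups, depth, the gene lost and the kind of loss differ together between both series, so their parts cannot be told apart.

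Genes of the same pathway outside the member list were read in the same fits. These lists too were chosen with earlier results of these data known. Over all genes tested, 2159 of 15130 in the Tbx3 and 5663 of 17488 in the Hand2 comparison had an unadjusted p under 0.05. In Tbx3-deficient buds, 11 of 15 glycolytic enzymes were called higher and 0 lower, against 0.727% and 0.284% of all genes tested. None was lower at an unadjusted p under 0.05. In Hand2-deficient buds the quasi-likelihood test called none of the 15, with 1 higher and 3 lower at an unadjusted p under 0.05, while DESeq2 called 3 lower and limma-voom 1, and edgeR called 1 lower without Hand2 control replicate 2. The summed level of the 15 was 16200 to 20300 CPM in Tbx3-deficient buds and 12000 to 13300 CPM in wild-type buds, and 8730 to 10800 CPM in Hand2-deficient buds and 10200 to 11100 CPM in controls. The count of 11 was 12 without Tbx3-deficient replicate 1, 1 without replicate 2 and 2 without replicate 3, and 1, 0 and 1 without wild-type replicate 1, 2 and 3 in turn. It was 1 with embryo sex as a covariate, 8 in the female libraries and 6 by limma-voom. The 4 enzymes with the smallest adjusted p were Gpi1 (log2 0.75 ± 0.07 SE), Tpi1 (0.94 ± 0.12), Pfkp (1.73 ± 0.22) and Aldoa (0.84 ± 0.11). Of 31 further HIF targets tested, 6 were called higher in Tbx3-deficient buds, against 0.727% of all genes tested. DESeq2 called 15, limma-voom 4 and edgeR with the sex covariate 3, and the median log2 fold change over the 31 was 0.32. The count of 6 was 10 without Tbx3-deficient replicate 1, 2 without replicate 3, and 1 without any other single library. The called genes include Bhlhe40, a transcriptional repressor, at 12.1, 16.5 and 20.7 CPM in Tbx3-deficient buds against 3.20, 2.99 and 2.69 CPM in wild-type buds (5.55-fold). Slc16a3, a lactate exporter, rose by 2.54-fold, Loxl2, a lysyl oxidase-like enzyme, by 2.02-fold, and Tmem45a by 2.28-fold. In Hand2-deficient buds 2 of 32 were called higher (against 4.68% of all genes), the collagen-crosslinking enzyme Lox (9.42, 9.18 and 9.86 CPM, against 3.09, 4.54 and 2.58 CPM) and Angptl4 (21.7, 17.3 and 19.7 CPM, against 11.8, 14.8 and 12.6 CPM). This count of 2 was 6 without control replicate 2, 2 without deficient replicate 2, and 1 without any other single library or with the sex covariate. It was 5 by DESeq2, 2 by limma-voom and 0 with a replicate block. Over the 32 the median log2 fold change was 0.16, and 23 were positive. At an unadjusted p under 0.05, 10 of the 32 were higher and 0 lower, against 19 higher and 1 lower of 31 in the Tbx3 series. The Hand2 groups did not overlap for 10 genes upward and 1 downward, against 18.6% and 19.6% of all genes. Of 17 further oxygen-sensing genes none was called by the quasi-likelihood test in the 6 libraries of either series, nor by limma-voom. In the Tbx3 series 1 was called higher by DESeq2 and 1 in the edgeR fit of 4 groups, and in the Hand2 series edgeR called 1 higher without control replicate 2. At an unadjusted p under 0.05, 4 of the 17 passed in each comparison, 2 in either direction in Tbx3-deficient buds, and 1 higher and 3 lower in Hand2-deficient buds.

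Stress lists and markers of other cell types were read beside these results. Over all 15130 genes tested in the Tbx3 comparison, 0.727% were called higher and 0.284% lower. In Tbx3-deficient buds no gene of the ATF4 stress list (10 tested) or the immediate early list (10 tested) was called by edgeR, DESeq2 or limma-voom. At an unadjusted p under 0.05, 2 ATF4 genes were lower and 2 immediate early genes higher, against 2159 of all 15130 genes in either direction. Macrophage markers summed to 8.19 to 10.9 CPM in Tbx3-deficient and 2.22 to 5.80 CPM in wild-type buds. Of the 10 markers 4 had enough counts to be tested, and all 4 were higher at an unadjusted p under 0.05. None was called by edgeR or limma-voom, 1 by DESeq2 and 1 by edgeR with no filter on low counts. The groups did not overlap upward for 8 of the 10, a count that includes markers too low to be tested. Among all 15130 genes tested, the groups did not overlap upward for 10.7%. Body wall markers summed to 44.1 to 86.7 CPM in Tbx3-deficient and 7.45 to 44.4 CPM in wild-type buds, and 0 of 4 tested were called by the 3 tools (1 higher at an unadjusted p under 0.05). Without wild-type replicate 1 edgeR called 1 of 5, and with no filter on low counts 1 of 7. Of the 5 hindlimb genes, Pitx1 (12.7 ± 0.526 CPM against 0.610 ± 0.250 CPM) and Hoxc9 were called higher in Tbx3-deficient buds, where the 5 summed to 27.4 to 27.6 CPM, against 8.88 to 10.7 CPM. These 2 calls became 1 without Tbx3-deficient replicate 2 or 3 or wild-type replicate 2 or 3, and with the sex covariate. Red cell genes summed to 2380 to 4640 CPM in Tbx3-deficient and 3320 to 5400 CPM in wild-type buds, with none of 12 called by any of the 3 tools, nor at an unadjusted p under 0.05. The log2 fold change was negative in all 12 (median -0.361), but the median was 0.221 with the sex covariate. The parts of these markers in the member values were not tested. No marker of any of these lists was at 0 in all libraries of a group.

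**Figure D5:**
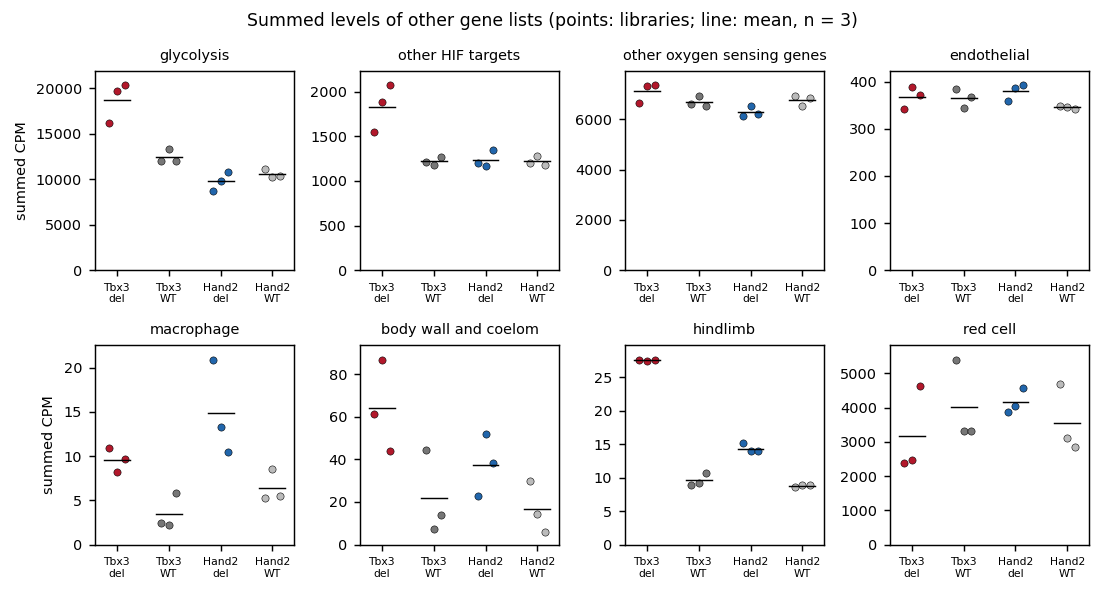
Summed CPM of 8 other gene lists in each library (points) with the mean of 3 libraries (line), on axes from 0. The glycolysis and other HIF target sums are highest in the Tbx3-deficient libraries, while the endothelial sums of Tbx3-deficient and Tbx3 wild-type libraries cover the same range.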

How the data were processed

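The deposited values are RSEM expected counts per Ensembl gene and library, made by the authors with STAR 2.5.2 and RSEM 1.3.0 on mm10 after FastQC 0.11.4, per the submitters' processing notes. The strand setting is not given in the sources used here. Total RNA passed an integrity number of at least 8.0, and SMARTer libraries were read as 85-base single ends on a NextSeq, per the labels' protocols. These expected counts were rounded to whole numbers. Each series of 6 libraries was fitted alone in edgeR 4.0.16 (R 4.3.3), after TMM normalisation and removal of low genes by filterByExpr (at least 10 counts, 15 in total). Genes were tested by quasi-likelihood F tests and p-values adjusted by Benjamini-Hochberg across the tested genes. The difference of effects came from a fit of 12 libraries. Fold changes put the deficient group over the wild type, with a prior count of 0.125, and their SE was taken from the F statistic. CPM are TMM-scaled, and TPM use exon lengths of the GENCODE M21 annotation (GRCm38). Promoters are RefSeq windows.

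Every member is reported. Values by library are given for HIF subunits, oxygen sensors and called members. Of other lists, up to 4 called genes with the smallest adjusted p are named. The 36 members and all lists were chosen with earlier results of these data known. Alternatives were DESeq2 size factors, no filter on low counts, DESeq2 1.42.0, limma-voom (limma 3.58.1), a 4-group fit, a replicate block, embryo sex as a covariate, female libraries only, and each library left out. The edgeR steps were tested on simulated data.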

Additional observations from a re-analysis of the deposited data

Results flagged for a closer look

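For 13 members the effects of both losses differed when the difference itself was tested (Hand2 effect minus Tbx3 effect, edgeR quasi-likelihood test in the fit of 12 libraries). The log2 difference was -2.299 for Stc2, -1.959 for Ndrg1, -1.793 for Pdk1 and -1.764 for Egln3. It was -1.298 for Pfkfb3, -1.289 for Ankrd37, -1.219 for Ak4 and -1.06 for Fam162a. Smaller negative differences were those of P4ha1 (-0.889), Higd1a (-0.818), Jmjd6 (-0.722) and Egln1 (-0.67). Jmjd6 differs from the others in that its fold change in Hand2-deficient buds was itself called lower, at -0.41 on the log2 scale. Epas1 had a positive difference of 0.617, its level being higher in Hand2-deficient buds than in their controls, while the Tbx3-deficient libraries lay within the range of the Tbx3 wild-type ones. With each library left out in turn, the call was lost in 10 fits for Epas1, P4ha1 and Ankrd37. It was lost in 7 for Ndrg1, 6 for Higd1a, 2 for Egln1 and 0 for the others. A replicate block lost Epas1, Egln1, Higd1a, Pfkfb3 and Ndrg1, and the sex covariate lost Epas1, P4ha1 and Ankrd37.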

How the results depend on the processing

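In the Tbx3 comparison, every tested member kept the sign of its fold change under each alternative, except for Epas1, whose value reached 0.00 with a library left out. Its 16 members called higher among 153 genes became 27 of 504 with no filter on low counts, 27 of 551 by DESeq2, 25 of 422 in the 4-group fit and 3 of 22 with embryo sex as a covariate. By limma-voom 99 genes were called and in the female libraries 57. With 1 library left out, 1 to 22 members of 23 to 220 genes were called. In the Hand2 comparison, 2 members higher and 2 lower among 1836 genes became 5 and 4 of 3451 by DESeq2 and 1 and 1 of 526 with the sex covariate. Without the filter 1 was lower. With 1 library left out, 0 to 2 were higher and 0 to 2 lower, among 218 to 2223 genes. The 13 members whose effects differed became 24 by DESeq2 and 7 to 18 with 1 library left out. The cause of these moves was not tested.

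A few Hand2 fold changes near 0 changed sign. Egln1 (0.001) was -0.004 with DESeq2 size factors, by DESeq2 and with the sex covariate, and Kdm3a was -0.02 with the covariate. With 1 library left out the log2 fold change ran from -0.047 to 0.028 for Egln1, -0.002 to 0.184 for Vegfa, -0.317 to 0.059 for Stc2, -0.013 to 0.182 for Pfkfb4 and -0.152 to 0.056 for Slc2a3. It ran from -0.064 to 0.116 for Kdm3a, -0.049 to 0.022 for Ankrd37 and -0.432 to 0.067 for Car9. The difference of effects ran from -0.038 to 0.07 for Hif1a, -0.024 to 0.059 for Arnt and -0.649 to 0.219 for Car9.

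Deviations of same-numbered libraries from their group means correlated over genes at 0.072, 0.016 and -0.018 in the Tbx3 series and -0.173, 0.046 and 0.094 in the Hand2 series. Differently numbered libraries correlated at -0.117 to 0.102 and at -0.249 to 0.216. Whether replicate numbers pair the libraries is not known. These values cannot decide it, because deviations from a mean of 3 libraries are not independent of each other. With a replicate block 17 members were called higher among 87 genes in the Tbx3 series. In the Hand2 series 0 were higher and 1 lower among 161 genes, Egln1 being at 0, and 8 differences were called.

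Depth limited the least abundant members: Car9 was too low to be tested in the Tbx3 series.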

Other observations

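Other gene lists were read in the Hand2 series with edgeR's quasi-likelihood test, and many of their calls were lost when a library was left out. Whether these lists responded unequally in both series was not tested. Over all 17488 genes tested in the Hand2 comparison, 4.68% were called higher and 5.82% lower. In the Tbx3 comparison the shares were 0.727% and 0.284% of 15130 genes. Of 11 ATF4 targets tested, Trib3 was called higher, at 2.86 ± 0.505 CPM in Hand2-deficient buds and 1.38 ± 0.276 CPM in controls (SD, n = 3 each), and the amino acid synthesis genes Asns, Psat1 and Phgdh were called lower. Asns averaged 60.7 ± 1.5 CPM in Hand2-deficient buds and 86.3 ± 14 CPM in controls. The 3 lower calls were 0 with the sex covariate, with a replicate block and without any single library other than control replicate 2. The higher call was also 0 in those fits, except without deficient replicate 2. Among 10 immediate early genes tested, Egr1 was called higher (5.53 ± 0.394 CPM in Hand2-deficient buds and 2.41 ± 0.247 CPM in controls) and Ier2 lower. At least 1 higher call was made with each library left out, and no lower one.

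Macrophage markers summed to 10.5 to 20.9 CPM in Hand2-deficient buds and 5.31 to 8.53 CPM in controls. Of 10 tested, C1qb, Mrc1 and Ptprc were called higher, against 4.68% of all genes. Those 3 calls were 5 without control replicate 2, 1 without deficient replicate 2, and 0 without any other single library, with the sex covariate or with a replicate block. Of 5 hindlimb genes, Isl1, Hoxc9 and Pitx1 were called higher. Their count was 3 without control replicate 2, 2 without control replicate 1, 1 without any other single library or with the sex covariate, and 0 with a replicate block. Gata4 was called higher among body wall genes, where 1 call was made without deficient replicate 1 or control replicate 1 and 0 without each of the other 4 libraries, with the sex covariate or with a block. No red cell gene was called by edgeR in all 6 libraries (1 higher at an unadjusted p under 0.05), nor by DESeq2 or limma-voom, but 4 were called higher without control replicate 1 and 1 with no filter on low counts.

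Of the 10 forelimb mesenchyme genes, Prrx2, Lhx9 and Twist1 were called higher and Fgf10 lower in Hand2-deficient buds, against 4.68% and 5.82% of all genes. None of the list was called without deficient replicate 3 or control replicate 1, or with a block. Without deficient replicate 1 or control replicate 3 there was 1 higher call and 0 lower, without deficient replicate 2 or control replicate 2 there were 2 higher and 1 lower, and with the sex covariate 2 higher and 0 lower. In Tbx3-deficient buds Tbx5 was called lower, and the list had 1 lower call without deficient replicate 1 and 0 without any other single library, with the sex covariate or in the female libraries. Of the limb ectoderm genes, Fgf8, the signal of the apical ridge, was called lower in Hand2-deficient buds at 26.3 ± 2.12 CPM, against 44.3 ± 6.07 CPM in controls, with 0 calls without control replicate 3 and 1 without each of the others. In Tbx3-deficient buds Cldn6 was called higher at 44.3 ± 1.45 CPM, against 33.0 ± 2.87 CPM in wild-type buds. The list had 0 calls there when any 1 library was left out, by limma-voom, with the sex covariate, with a block and in the female libraries.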
